A study of Mus musculus with 2 samples.

Results

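The HOX cluster genes were described in 2 ATAC-seq libraries of mouse prostate tumor cells, made along the way to neuroendocrine prostate cancer (NEPC), a tumor form with nerve-like and hormone-secreting traits. All mouse protein-coding genes named Hoxa, Hoxb, Hoxc or Hoxd with a number were taken, which gave 38 of 21886 protein-coding genes. A further HOX gene of chromosome 11 was not analysed here. Each cluster was extended by 50 kb on either side, and every peak of either library in these windows was counted once and assigned to the nearest gene end. That gave 4 of the 22570 M6 peaks and 1 of the 5735 W2 peaks. M6 cells were from the late stage and had 6 months of tamoxifen, and W2 cells were from the early stage and had 2 weeks. Both came from C57BL/6 mice, and the labels name neither a transgene, an age nor an untreated control. ATAC-seq marks open DNA by the places where a transposase inserts adapters, and a peak is a stretch where such tags pile up over the local background. Each time point was a single library (1 each), so the differences given here have neither a replicate check nor a test, and all intervals cover counting error only.

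HOX genes encode homeodomain transcription factors that give cells their position along the body axis. They lie side by side in clusters, and their order along the chromosome follows the order in which they are used along the axis, from anterior to posterior. Genes with the same number in different clusters are paralogs. Posterior genes such as Hoxa13, Hoxd13 and Hoxa10 take part in shaping the male reproductive tract, the prostate included. In cells that do not use them, HOX clusters are classic targets of Polycomb repression, and many of their promoters are rich in CpG dinucleotides.

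HOX promoters were nearly free of peaks in both libraries, CpG-rich ones included. The 3 sequences below are HOX promoters, the first of them the exception with an M6 peak within 1 kb of its start. They are printed as RefSeq gives them for GRCm38.p6, 5′ to 3′ on the strand of the gene, from 250 bases before to 50 bases after the annotated start. Capitals mark CpG dinucleotides. Hoxa5, a central-group gene, was the HOX gene whose start lay nearest to a peak. Hoxd10, a posterior-group gene, had an M6 peak 2.15 kb upstream of this start. Hoxa13 had the most CpG dinucleotides of the HOX promoters in the table and no peak near it. The Hoxa5 window is chr6:52204538-52204837 on the minus strand, the Hoxd10 window chr2:74691641-74691940 on the plus strand and the Hoxa13 window chr6:52260831-52261130 on the minus strand.
Hoxa5: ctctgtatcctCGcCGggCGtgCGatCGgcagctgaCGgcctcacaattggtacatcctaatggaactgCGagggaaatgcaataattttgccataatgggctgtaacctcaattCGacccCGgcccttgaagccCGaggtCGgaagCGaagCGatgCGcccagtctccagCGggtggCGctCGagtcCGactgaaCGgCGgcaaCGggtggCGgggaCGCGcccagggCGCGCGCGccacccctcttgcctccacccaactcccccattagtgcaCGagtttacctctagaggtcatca
Hoxd10: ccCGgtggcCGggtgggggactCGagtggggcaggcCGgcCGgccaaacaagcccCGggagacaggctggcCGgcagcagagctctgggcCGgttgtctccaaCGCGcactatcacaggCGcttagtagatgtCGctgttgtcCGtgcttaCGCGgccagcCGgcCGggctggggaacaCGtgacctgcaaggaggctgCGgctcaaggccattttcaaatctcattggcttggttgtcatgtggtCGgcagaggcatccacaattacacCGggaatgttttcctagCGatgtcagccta
Hoxa13: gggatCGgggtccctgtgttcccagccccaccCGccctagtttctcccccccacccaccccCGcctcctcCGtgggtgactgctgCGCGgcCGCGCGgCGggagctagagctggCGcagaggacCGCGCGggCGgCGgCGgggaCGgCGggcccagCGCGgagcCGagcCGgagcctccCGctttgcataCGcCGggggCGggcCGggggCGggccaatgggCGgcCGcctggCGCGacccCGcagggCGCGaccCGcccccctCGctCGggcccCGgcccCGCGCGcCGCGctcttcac
These windows held 29, 22 and 45 CpG dinucleotides. The ratio of observed to expected CpG was 1.02 for Hoxa5, 0.75 for Hoxd10 and 0.92 for Hoxa13.

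The 4 clusters together spanned 415 kb and the windows 815 kb. The Hoxa cluster (chromosome 6, 11 genes) held 2 M6 peaks and 1 W2 peak. The Hoxd cluster (chromosome 2, 74668225 to 74765142, 9 genes) held 2 M6 peaks and 0 W2 peaks. The Hoxb cluster (chromosome 11, 96271330 to 96368254, 9 genes) and the Hoxc cluster (chromosome 15, 102921131 to 103036856, 9 genes) held 0 peaks in both libraries. All 5 peaks lay inside a cluster, and the 50 kb flanks held 0. The windows had 0.491 M6 peaks and 0.123 W2 peaks per 100 kb, against 0.829 and 0.211 over the whole span of annotated genes. At the density over that span the windows would have held 6.76 M6 peaks and 1.72 W2 peaks. The exact Poisson 95% intervals of the observed 4 M6 peaks (1.09 to 10.2) and 1 W2 peak (0.0253 to 5.57) include these numbers. A shortfall of peaks in the windows was thus not shown for either library.

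**Figure D1:**
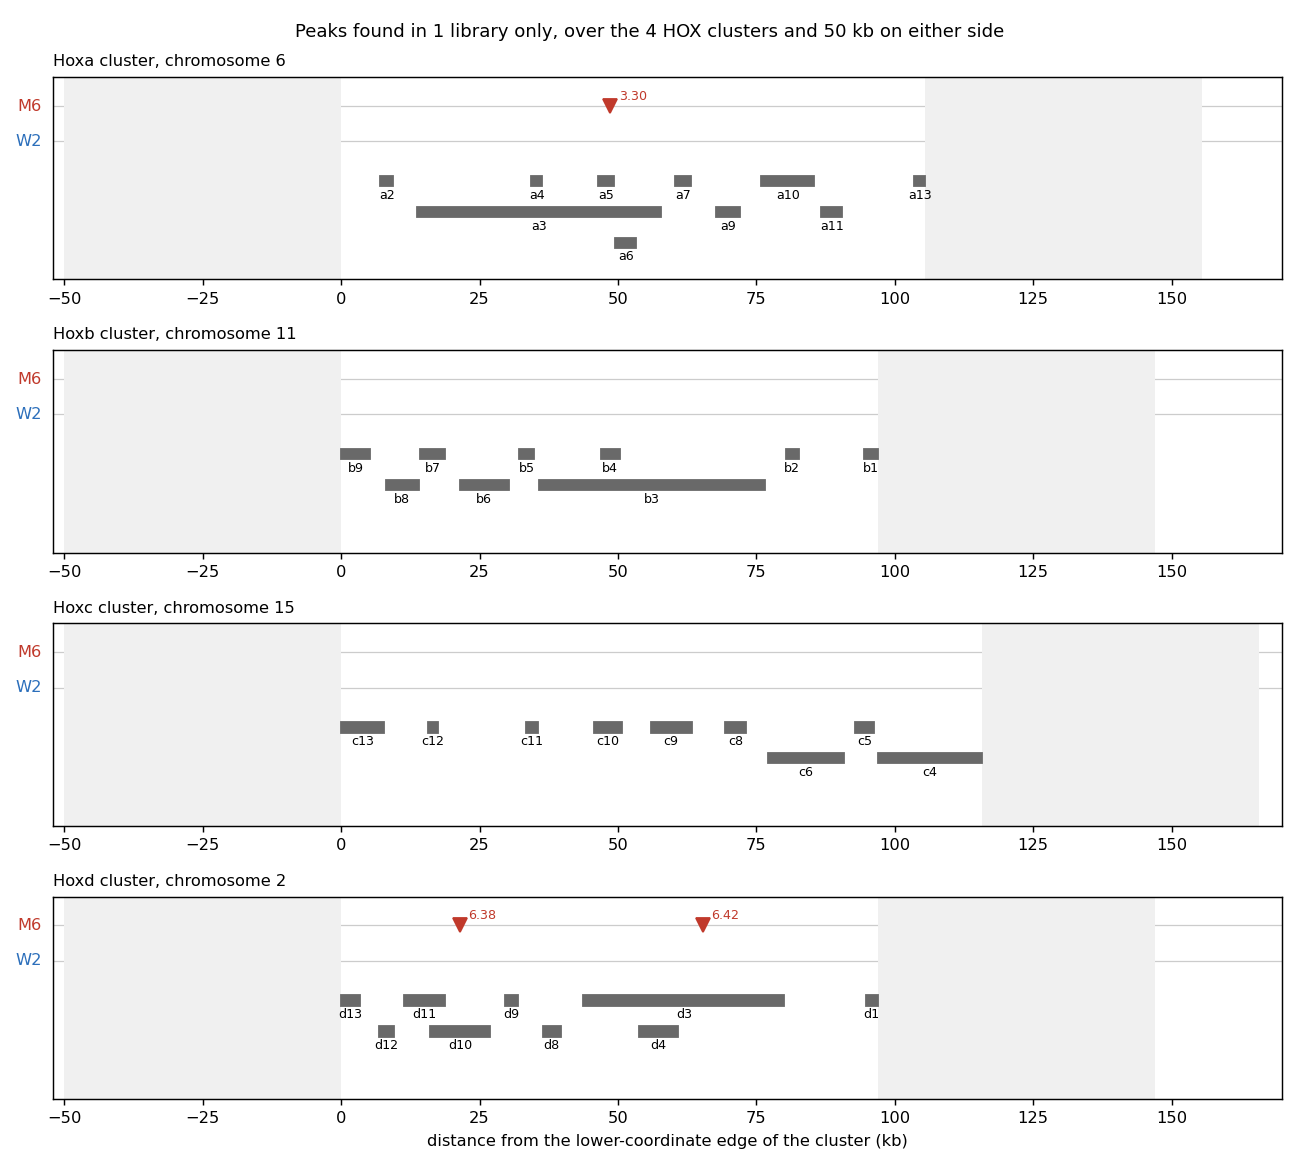
HOX genes (grey boxes, named without "Hox") and peak summits (triangles) of M6 and W2 along each cluster, by distance in kb from its lower-coordinate edge, with flanks of 50 kb shaded and the −log10 q beside each triangle. Drawn are the 3 peaks found in M6 alone, 1 in the Hoxa and 2 in the Hoxd cluster. The overlapping pair of peaks is not drawn, nor is 1 HOX gene.

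Of the 4 M6 peaks in the windows, 1 overlapped a W2 peak (25%, exact binomial 95% interval 0.631 to 80.6%), against 20.2% of all M6 peaks. The 1 W2 peak overlapped an M6 peak, as did 80.5% of all W2 peaks. This counts an overlap of 1 bp, and where 50% of the shorter peak had to overlap, the M6 share was 0%. The 3 peaks described next were found in M6 alone.

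The Hoxa peak without a W2 counterpart lay inside Hoxa5, a gene of lung and axial skeleton development. It was at chr6:52203932-52204170, with 13 tags at the summit (the pileup, exact Poisson 95% interval 6.92 to 22.2), an authors' fold over local background of 3.83 and a −log10 q of 3.30. Its nearer edge was 0.417 kb downstream of the Hoxa5 start. The same edge was 0.688 kb from the 3′ end of the neighbouring Hoxa6 and 4.50 kb from the Hoxa6 start, so this single peak counted for both genes. The long annotated body of Hoxa3 and the non-coding gene Hoxaas3 (52201124 to 52213597) overlap it too.

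The Hoxd cluster, known for its role in limb and genital development, had its peaks away from gene ends and in M6 alone. The first, at chr2:74689479-74689744, lay inside the annotated body of Hoxd10, 2.46 kb from the nearest gene end, that of Hoxd11. It had 19 tags (11.4 to 29.7), a fold of 4.72 and a −log10 q of 6.38. The second, at chr2:74733334-74733702, lay inside the annotated body of Hoxd3, 4.17 kb beyond the end of Hoxd4. It also had 19 tags, with a fold of 4.74 and a −log10 q of 6.42. Local backgrounds there were 3.24 and 3.22 tags, against an M6 library median of 3.52.

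These peaks were not among the strong ones of their library. The 2 Hoxd peaks stood near the middle of the M6 list, with 45.6% and 46.0% of M6 peaks below them by −log10 q. For the M6 peak at Hoxa5 this was 7.82%. When the M6 list was cut to the length of the W2 list by −log10 q (5735 peaks, lowest value kept 10.8), M6 had 0 peaks in the windows. The W2 list was left whole, so its 1 peak stayed by design and this cut does not rank the libraries. Regions with fewer than 10 tags (M6) or 12 tags (W2) at the summit are outside the deposited lists, so weaker openness at the other genes was not detectable at this depth.

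**Figure D2:**
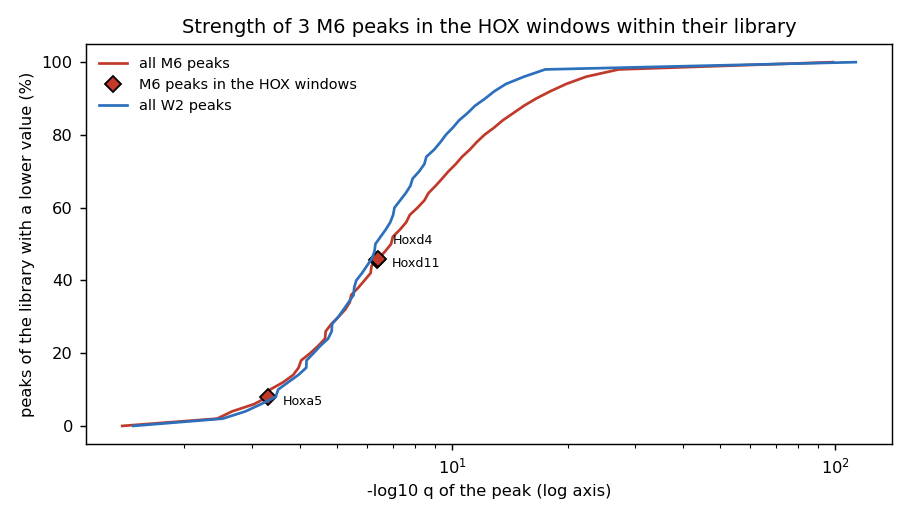
Share of a library's peaks (percent, vertical axis) with a lower −log10 q than the value on the horizontal log axis, for M6 and W2 (lines), with 3 M6 peaks of the HOX windows as diamonds named by nearest gene. The peaks near Hoxd11 and Hoxd4 sit at 45.6% and 46.0%, and that at Hoxa5 at 7.82%.

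Gene by gene, 2 of 38 HOX genes had a gene-end peak in M6 (5.26%, exact binomial 95% interval 0.644 to 17.7%) and 0 of 38 in W2 (upper bound 9.25%). Over all protein-coding genes the share was 39.7% in M6 and 18.4% in W2. The HOX intervals take the genes as independent, though they lie side by side in clusters, so they may be too narrow. Hoxa5 and Hoxa6, which share their peak, had it in M6 and not in W2, as did 21.9% of all protein-coding genes. The reverse, a W2 gene-end peak without an M6 one, was found at 0 HOX genes and at 0.649% of all genes. By position along the body axis, the genes with a gene-end peak were 2 of 15 central ones (groups 4 to 8), 0 of 8 anterior ones (groups 1 to 3) and 0 of 15 posterior ones (groups 9 to 13). The posterior genes Hoxa13 and Hoxd13 lay 54.7 kb and 17.9 kb from their nearest M6 peak, and 100 kb and 89.1 kb from their nearest W2 peak.

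Wider windows gave the same order. A peak within 10 kb of the gene body was found at 10 of 38 HOX genes in M6 and 2 in W2, where all genes had 59.1% and 29.6%. Within 50 kb these counts were 19 (50%) in M6 and 6 (15.8%) in W2, against 74.4% and 48.4% of all genes. The 19 genes of M6 were 10 of the Hoxa and all 9 of the Hoxd cluster, and the 6 of W2 were all of the Hoxa cluster. Neighbouring HOX genes share the same few peaks, so these counts are not independent of each other. The median distance from a HOX gene end to the nearest peak was 46.3 kb in M6 and 163 kb in W2, against 5.71 kb and 56.9 kb over all protein-coding genes. For the Hoxb genes it ran from 195 to 290 kb in both libraries. The microRNA genes inside the clusters, Mir196b, Mir10a, Mir196a-2 and Mir10b, had no peak within 1 kb, and the nearest was the M6 peak 7.20 kb from Mir10b.

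The peak-free stretches reached well past the clusters. From the Hoxa5 peak upward, M6 had no peak for 436 kb, up to a peak at Hibadh, a valine-degrading enzyme. The M6 stretch over the Hoxb cluster ran for 599 kb, from Atp5g1, a subunit of the ATP synthase, to an M6 peak inside Skap1, 84.3 kb from its nearer end. Over the Hoxc cluster it ran for 441 kb, from Calcoco1 to a peak 5.47 kb from an end of Smug1, a DNA repair enzyme. Beyond the peak in Hoxd3 it ran for 909 kb, of which 878 kb lay outside the cluster, and it held 1 HOX gene whole. Between 95.4% and 98.6% of all M6 intervals between neighbouring peaks were shorter than these, the median being 45.8 kb, though an interval picked because it covers a given place tends to be long. Each was also the longest interval touching its cluster. That choice favours high shares for Hoxa and Hoxd, where M6 peaks lay inside and several intervals touch the cluster. In W2 the corresponding stretches were 701 kb (Hoxb), 517 kb (Hoxc) and 1080 kb (Hoxd), longer than 78.8 to 89.7% of W2 intervals, whose median was 140 kb.

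At several of these borders a peak was found in both libraries, but the M6 peaks at the upper ends of the Hoxb, Hoxc and Hoxd stretches had no W2 counterpart. Calcoco1, a transcription coactivator, had a gene-end peak with a −log10 q of 18.8 in M6 and 11.9 in W2. Lnpk, an endoplasmic reticulum protein gene, had 13.4 in M6 and 6.27 in W2, and its M6 peak lay 88.9 kb from the Hoxd cluster. Skap2, a signalling adaptor gene beside the Hoxa cluster, had 12.9 in M6 and 6.44 in W2, and Hibadh on the other side had 26.1 in M6 and 3.51 in W2. Snx11, a sorting nexin gene beyond the Hoxb cluster, had 14.7 in M6 and 14.0 in W2. Cbx5 and Hnrnpa1, the genes of heterochromatin protein 1 alpha and an RNA-binding protein, share a gene-end peak with 15.9 in M6 and 14.3 in W2. Over all 4618 W2 peaks with an M6 counterpart, the M6 pileup was the higher at 85.7%. A higher M6 value was thus the usual case and does not set these borders apart. Of a list of 19 neighbours, 9 had a gene-end peak in M6 (47.4%, exact binomial 95% interval 24.4 to 71.1%) and 7 in W2 (36.8%, 16.3 to 61.6%), against 39.7% and 18.4% of all protein-coding genes. Smug1 and Skap1 had none in either library, and neither had Evx1 and Evx2, homeobox genes that border the Hoxa and Hoxd clusters.

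By distance, the 50 kb next to the clusters held no peak in either library. M6 had 0.964 peaks per 100 kb inside the clusters (exact Poisson 95% interval 0.263 to 2.47), 0 within 50 kb (upper bound 0.922), 0.250 from 50 to 100 kb, 0.667 from 100 to 250 kb, 1.00 from 250 to 500 kb and 1.30 from 500 to 1000 kb (0.971 to 1.70). In W2 the same bands held 0.241, 0, 0.250, 0.583, 0.45 and 0.525 peaks per 100 kb. The bands up to 100 kb rest on 4 peaks or fewer, and the interval of the empty band overlaps that of the clusters in both libraries. Inside the clusters the M6 density was thus not below the 0.829 of the genome, but the clusters are dense in genes. Over 200 kb stretches with at least 8 protein-coding genes the median was 5 M6 peaks and 2 W2 peaks. The 3 such stretches that hold HOX genes had 2, 1 and 0 M6 peaks and 0 W2 peaks. Of all 481 such stretches 33.3% had at most 2 M6 peaks and 31.0% had no W2 peak.

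**Figure D3:**
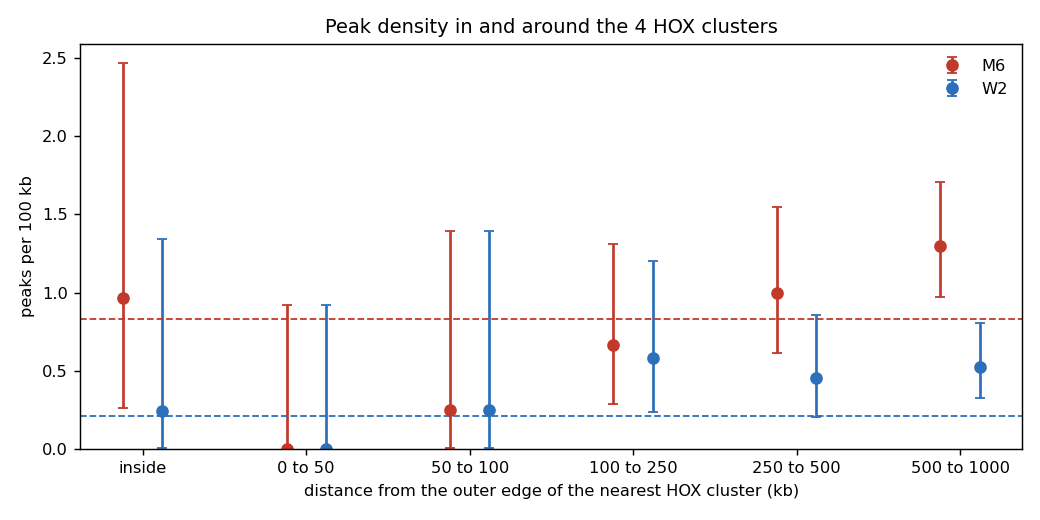
Peaks per 100 kb (vertical axis) inside the 4 HOX clusters and in bands of distance from their outer edges (horizontal axis, kb), summed over clusters for M6 and W2, with exact Poisson 95% intervals and the genome-wide density of each library as a dashed line. Both libraries have 0 peaks within 50 kb of a cluster, and M6 reaches 1.30 per 100 kb from 500 to 1000 kb.

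HOX promoters were also set beside other promoters of like CpG content. The RefSeq promoter table held 24 starts of 22 HOX genes, of which 9 were CpG-rich (observed to expected ratio of at least 0.6 and GC content of at least 55%). Of these 9, 1 had an M6 peak within 1 kb of the start, that of Hoxa5 (11.1%, exact binomial 95% interval 0.281 to 48.2%), and 0 had a W2 peak (upper bound 33.6%). Of all 8709 CpG-rich promoters in the table, 70.1% had one in M6 and 34.6% in W2. Among promoters that missed the ratio limit or the GC limit the shares were 20.5% in M6 and 7.94% in W2. The 15 HOX starts there had 0 in both (exact binomial upper bound 21.8%, above both shares). Of these, Hoxb8 (ratio 0.97), Hoxd3 (0.92) and Hoxa11 (0.79) passed the ratio limit and missed the GC limit. In the class with a ratio from 0.8 up to 1.0, 0 of 8 HOX starts had an M6 peak (upper bound 36.9%), against 72.7% of 4244 others. HOX starts missing from the table, among them all Hoxc starts but that of Hoxc4, are not covered by this comparison.

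**Figure D4:**
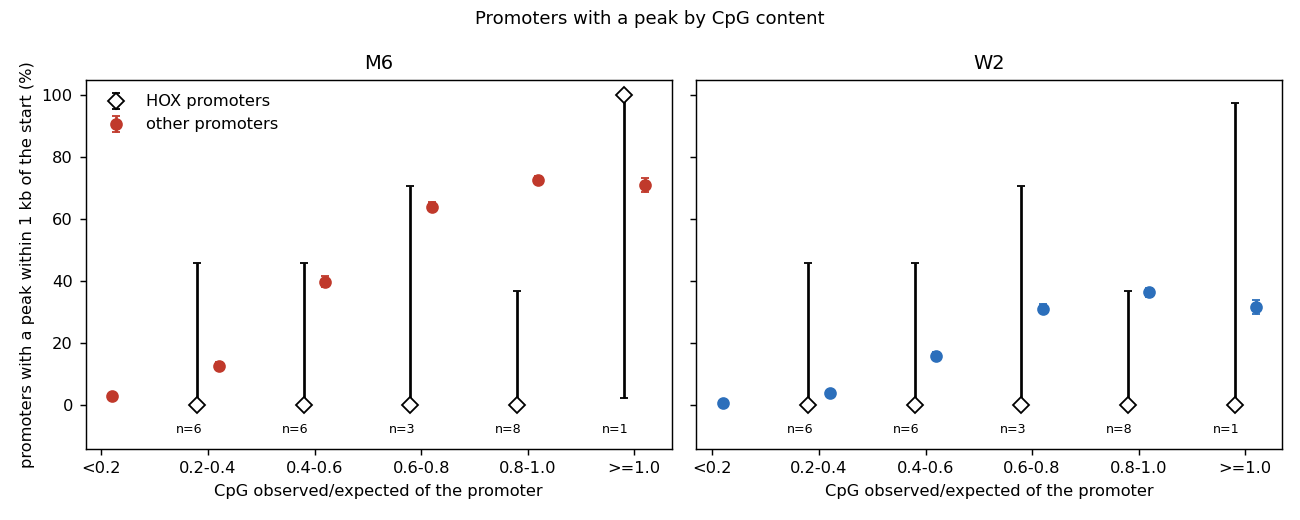
Percent of promoters with a peak within 1 kb of the start (vertical axis) by CpG observed to expected ratio (horizontal axis), for M6 (left) and W2 (right), with exact binomial 95% intervals. Diamonds are HOX promoters, with their number below, and circles all others. The HOX starts are at 0 in every class, except the 1 start with a ratio of at least 1.0, Hoxa5, in M6.

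Short motifs in the promoter windows were counted on both strands. The homeodomain motif TAATTA was in 2 of 24 HOX windows (8.33%), both of Hoxd11, against 4.54% of all 21255 promoters. The PBX-HOX motif TGATTNAT, bound by HOX proteins together with a PBX partner, was also in 2 HOX windows, those of Hoxa2 and Hoxd11 (8.33% against 2.75%). The CTCF core, searched as a string with open positions, was in 4 HOX windows, of Hoxa11, Hoxc4, Hoxd11 and Hoxd3 (16.7% against 9.88%). The GC box GGGCGG was in 10 (41.7% against 46.2%), the AP-1 motif TGANTCA in 1 (4.17% against 6.99%) and TATAAA in 4 (16.7% against 12.6%). The direct repeat of the retinoic acid receptor was in 0 HOX windows and in 1 of all promoters. TAATTA and TGATTNAT can overlap each other. Of the sequences printed above, Hoxa13 held 6 GC boxes, and Hoxa5 and Hoxd10 held none of these motifs.

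Genes that work with HOX proteins were counted in the same way. The TALE homeobox cofactors, which bind DNA together with HOX proteins, carried a gene-end peak in 7 of 9 cases in M6 (77.8%, exact binomial 95% interval 40.0 to 97.2%) and 3 of 9 in W2 (33.3%, 7.49 to 70.1%). Over all protein-coding genes the shares were 39.7% in M6 and 18.4% in W2, so the M6 interval lies just above the share of all genes and the W2 interval includes it. Pbx3 had a −log10 q of 12 in M6 and 5.35 in W2, and Meis1 had 6.81 in M6 and 3.51 in W2. As at the cluster borders, the higher M6 values do not set these genes apart from other shared sites. Pknox1 had 20.5 in M6 and no W2 peak there. Among 28 upstream regulators of HOX genes, 12 had a gene-end peak in M6 (42.9%) and 4 in W2 (14.3%), near the 39.7% and 18.4% of all genes. The strongest in M6 were Psip1, a chromatin reader that tethers MLL complexes (19.3 in M6 and 9.47 in W2), Cdx2, a caudal homeobox factor (13.2 in M6, none in W2), Men1, the menin gene (10.0 in M6 and 3.61 in W2), and Rnf2, a Polycomb ubiquitin ligase (9.62 in M6, none in W2). Retinoic acid receptors and retinoid enzymes of the list (Rara, Rarb, Rarg, Rxra, Aldh1a2, Cyp26a1, Cyp26b1 and Cyp26c1) lacked gene-end calls in both libraries. They were picked after their values were seen, and gene ends do not cover peaks inside a gene. Within 10 kb of the gene body, M6 had 10 peaks at Rarb, 5 at Rxra, 4 at Rara and 1 each at Rarg and Aldh1a2. The Cyp26 genes had 0 there, and W2 had 1 such peak, at Rara.

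Other developmental gene families were compared as well. Of 14 PAX and ZIC genes, 0 had a gene-end peak in either library (upper bound 23.2%). Of 87 genes of other homeobox families, 11 had one in M6 (12.6%, 6.48 to 21.5%) and 0 in W2. Of 19 SOX genes, 5 had one in M6 (26.3%, 9.15 to 51.2%) and 2 in W2. The HOX interval in M6 (0.644 to 17.7%) overlaps those of all these families and lies below the 39.7% of all genes. That interval takes the HOX genes as independent, though they lie in clusters and the called ones share a single peak, so it may be too narrow. In M6 the intervals of the PAX and ZIC genes and of the other homeobox families also lie below 39.7%, while that of the SOX genes includes it. In W2 the HOX genes and the other homeobox families lie below the 18.4% of all genes (upper bounds 9.25% and 4.15%). The W2 intervals of the PAX and ZIC genes and of the SOX genes (1.30 to 33.1%) include it.

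**Figure D5:**
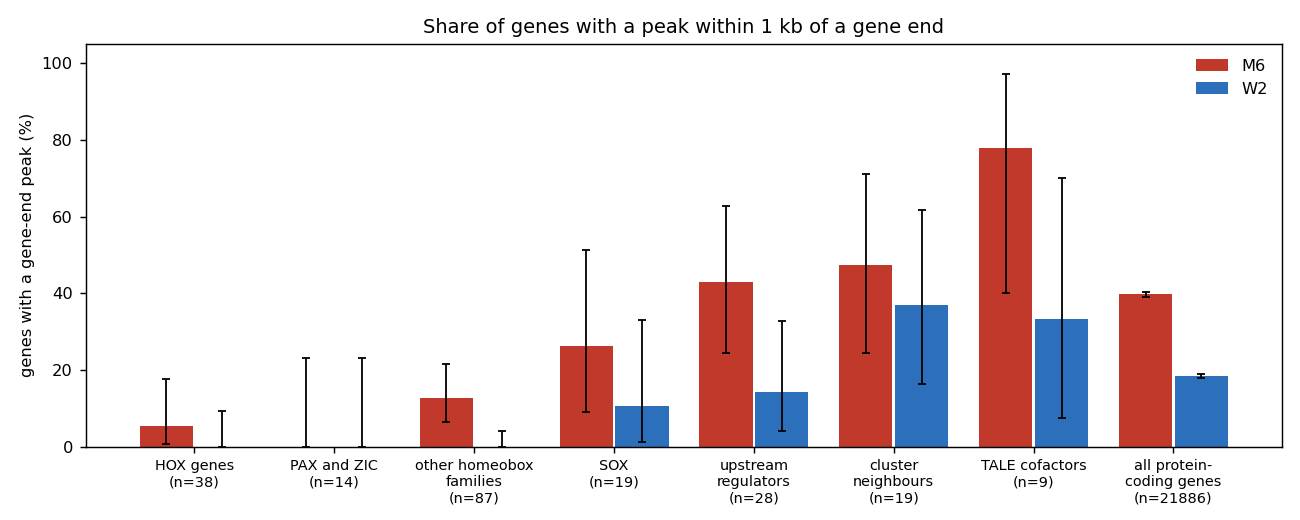
Percent of genes with a peak within 1 kb of a gene end (vertical axis) in M6 and W2 for HOX genes, other developmental families, regulators, neighbours, cofactors and all protein-coding genes, with exact binomial 95% intervals and n below each group. HOX genes are at 5.26% in M6 and 0 in W2, TALE cofactors at 77.8% and 33.3%, and all genes at 39.7% and 18.4%.

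The labelled cell type was checked by gene-end peaks at markers. Luminal epithelial genes had them at 3 of 9 genes in M6 (Epcam, Krt8 and Cdh1) and 2 of 9 in W2 (Cdh1 and Epcam). Neuroendocrine genes had them at 2 of 6 in M6 (Uchl1 and Ncam1) and 0 of 6 in W2. With all genes at 39.7% in M6 and 18.4% in W2, these counts do not tell the markers from other genes. Basal (4 genes), fibroblast and smooth muscle (7), leukocyte (5) and endothelial markers (4) had none in either library. Their exact binomial upper bounds ran from 41.0 to 60.2%, above both shares of all genes. Those zeros do not tell these markers from other genes either, and do not show that such cells were absent. HOX genes are also used by stromal and blood cells, and in bulk cells a small share of open cells and partial openness in all of them cannot be told apart. The lowest background was 2.65 tags in M6 and 2.96 tags in W2, and the median over peaks was 3.52 tags in M6 and 3.44 tags in W2. The part of depth in the HOX counts was not tested.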

How the data were processed

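Each library came as its own peak list on mm10, and no replicates were pooled. Trim Galore 0.5.0, Bowtie2, SAMtools 1.4 and deepTools are named per the submitters' processing notes, without their roles. Not given in the sources used here are the caller, its threshold and the handling of duplicates and of the transposase offset. The fold deposited per peak is a linear ratio of its summit to the background around it. Each peak's −log10 p and −log10 q are also the authors' deposited values. The score that the authors deposited is about 10 times the −log10 q and was not used. Peaks on other sequences than chromosomes 1 to 19, X and Y (24 in M6, 30 in W2) were left out.

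Pileup and background were recovered from the fold, taken as (pileup + 1)/(background + 1), and the p, taken as a Poisson tail. Whole pileups (tolerance 0.001 in −log10 p) came out for 100% of M6 and W2 peaks, and for 100% of 1994 simulated peaks. Genes came from RefSeq on GRCm38.p6, the assembly of mm10, without strand, and starts with strand from its promoter table. A gene-end peak lies within 1 kb of either annotated end, and shared peaks overlap by at least 1 bp. The genome span is the sum over chromosomes of the last annotated gene end. The 38 members and all lists were chosen with earlier results of these data known, and the CpG classes, distance bands, 200 kb stretches and comparison families were added after seeing the few peaks. The genes named were all HOX genes with a gene-end peak, the strongest peaks per cluster and border, and up to 4 genes per list by −log10 q, with a few others picked after their values were seen. The printed Hoxd10 and Hoxa13 promoters were chosen in that way too. Values of some genes and of the peaks at 1 HOX gene are not reported here, though the counts include them. With 1 library per time point no test was made. Python 3.11.15, pandas 2.3.3 and SciPy 1.17.1 were used.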

Additional observations from a re-analysis of the deposited data

How the results depend on the processing

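Counts here are small, and of 45 values recomputed under other settings 26 stayed within 1.5 times (or the counting interval) and 19 moved. A stricter −log10 q minimum of 5 left 2 M6 peaks, both nearest to HOX genes, 0 W2 peaks, 0 M6 gene-end calls and a shared share of 0%. With equal numbers of peaks, ranked by −log10 q or by fold, M6 had 0 peaks (0 per 100 kb) and 0 gene-end calls. The W2 list was not shortened by this, so its 1 peak stayed by design, and no shared share could be computed. The W2 values of these settings are among the 26 but could not move, so they say nothing of stability. Requiring an overlap of 50% of the shorter peak lowered the shared share of M6 peaks to 0%, against 25% (1 of 4) with 1 bp. A gene-end window of 0.5 kb gave 1 M6 gene, one of 2 kb gave 1 W2 gene, and the annotated start alone gave 1 M6 gene. By start, 4.17% of 24 HOX starts had an M6 peak within 1 kb, against 40.8% of all 21255 starts. For the other settings the share over all genes is not given here, so those gene counts cannot be set against it. Flanks of 100 kb gave 2 W2 peaks, the added one at Lnpk. No paired analysis was possible because each time point had 1 library. The lowest pileup in the lists was 10 tags in M6 and 12 tags in W2.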
